A study of Mus musculus with 15 samples.

Results

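The genes described here are the WNT ligands, their receptors, the secreted and intracellular inhibitors of the pathway and its transcription effectors, as measured by RNA sequencing of whole mouse skin. Members were chosen by name: every gene of the expression table whose symbol starts with Wnt, Fzd, Dkk, Sfrp or Rspo followed by a digit, together with *Lef1*, *Tcf7*, *Tcf7l1*, *Tcf7l2*, *Axin2*, *Ctnnb1*, *Wif1*, *Nkd1*, *Nkd2*, *Lrp5* and *Lrp6*. The rule found 52 of 24543 genes. Levels are RPKM, reads scaled to gene length and library depth. Of the members, 43 reached an RPKM of 1 in 3 or more libraries and were tested, among 13922 genes tested in all, and 9 did not.

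All mice were K14CreERTM/LSL-SOX2. In these animals tamoxifen activates a Cre recombinase made under the keratin 14 promoter of basal keratinocytes, which releases a SOX2 transgene from its stop cassette. The strain is given as 129/SvEv/C57/B16 X CD-1. Skin received tamoxifen (5 mg/ml in 200 µl of ethanol) or, as vehicle, ethanol alone. It was unwounded (day 0; 4 vehicle and 3 tamoxifen libraries) or wounded (day 4; 2 sets of 4 libraries), so wound state and day cannot be told apart. No group received tamoxifen without the transgene. The sources used here do not say that each library is a separate mouse, and p-values may therefore measure only technical spread. For wounded skin the sources disagree on which libraries had tamoxifen. Set A is tamoxifen in the sample records and vehicle in the gene tables, whose names a deposited sheet marks as the newer ones, and set B is the reverse. Values are therefore given by set. Differences between the sets are written as B minus A, which is tamoxifen minus vehicle by the gene tables and the reverse by the records.

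WNT proteins are lipid-bearing ligands that bind Frizzled receptors, and with an Lrp5 or Lrp6 co-receptor they stop the destruction of β-catenin, the product of *Ctnnb1*. β-Catenin then acts in the nucleus with Lef1 and the Tcf factors and switches on feedback inhibitors such as *Axin2* and the Naked cuticle genes. Other ligands, Wnt5a and Wnt11 among them, are known mainly for signalling through Frizzled receptors without β-catenin. R-spondins strengthen the signal by sparing Frizzled receptors from removal, whereas Dickkopf proteins act on the co-receptors and Sfrp and Wif1 proteins bind the ligands outside the cell. In skin the pathway is known for inducing hair follicles and for starting the growth phase of the hair cycle.

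Promoter sequences are shown for *Wnt11*, *Lef1* and *Fzd7*, members that were higher in unwounded tamoxifen skin and whose 250 bases before an annotated start hold a word read by Lef1 and Tcf factors. The words searched on both strands were CTTTGAA or CTTTGAT (on the other strand TTCAAAG or ATCAAAG). The search also took CTTTGTA or CTTTGTT (on the other strand TACAAAG or AACAAAG). The word found is in capitals. Sequences are RefSeq's for GRCm38.p6, 5′ to 3′ on the strand of the gene, which is the plus strand for all 3. They lie at chr7:98834862-98835111 for *Wnt11*, chr3:131156044-131156293 for *Lef1* and chr1:59481897-59482146 for *Fzd7*.
Wnt11: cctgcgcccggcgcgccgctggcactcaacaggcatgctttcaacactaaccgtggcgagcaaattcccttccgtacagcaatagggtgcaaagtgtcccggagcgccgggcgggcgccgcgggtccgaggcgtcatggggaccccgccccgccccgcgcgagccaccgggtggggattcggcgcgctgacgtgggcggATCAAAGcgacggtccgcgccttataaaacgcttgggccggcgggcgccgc
Lef1: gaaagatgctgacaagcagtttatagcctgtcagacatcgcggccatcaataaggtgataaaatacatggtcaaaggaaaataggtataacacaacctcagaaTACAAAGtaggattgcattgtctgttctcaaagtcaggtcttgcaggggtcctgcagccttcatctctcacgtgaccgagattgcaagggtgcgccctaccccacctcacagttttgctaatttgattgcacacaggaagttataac
Fzd7: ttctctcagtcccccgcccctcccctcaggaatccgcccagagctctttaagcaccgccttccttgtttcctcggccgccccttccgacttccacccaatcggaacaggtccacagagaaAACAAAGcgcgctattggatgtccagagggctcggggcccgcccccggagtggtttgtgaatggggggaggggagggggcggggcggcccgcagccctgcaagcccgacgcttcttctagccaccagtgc
In *Wnt11* the word begins 51 bases before the most upstream of the starts listed, and in *Fzd7* 130 bases before its start. In *Lef1* it begins 147 bases before the most downstream of the starts listed. The other *Wnt11* and *Lef1* starts hold none in this window. Promoters were found for 36 of the 52 members. A word was present in 6 of 45 member promoters (13.3%), in 5 of 30 promoters of members that were higher with tamoxifen in unwounded skin (16.7%), in 10.8% of the promoters of all genes tested and in 14.8% of all 32851 promoters. The share among members was thus close to that of promoters in general.

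Depth ranged from 39277860 (in set A) to 75102345 (in set B) alignments per library, and 3 reads on a gene of 1 kb correspond to 0.0399 to 0.0764 RPKM. *Sox2* was at 1.98 to 2.89 RPKM in unwounded tamoxifen and at 1.85 to 2.57 RPKM in unwounded vehicle skin, so it did not check the treatment names. Keratinocyte and fibroblast markers were present in every group, with summed RPKM of 4256 to 5112 and 1597 to 3817 where they were lowest, in unwounded tamoxifen skin. The 14 hair shaft and follicle markers summed to 22.5 to 33.3 RPKM in unwounded vehicle skin, 16177 to 24427 in unwounded tamoxifen skin and 3063 to 6137 in set B. In set A the sum was 1553 in replicate 2 and 17.9 to 50.2 in the other libraries, so replicate 2 stood apart from its set. Exons of 11 members, among them *Wnt11*, *Wnt5a*, *Lef1*, *Axin2*, *Fzd5* and *Sfrp2*, overlap a gene on the opposite strand in GENCODE M21. Since the use of strand in counting is unstated, their values can include reads of that gene.

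*Ctnnb1* was the most abundant member in each of the 4 groups, at a mean of 127 ± 3.16 RPKM (SD, n = 4) in unwounded vehicle skin. Next came *Wnt4* (17.9 ± 1.62) and *Lrp5* (17.4 ± 1.46), which did not differ beyond their spread. In unwounded tamoxifen skin *Fzd1* came second (45.1 ± 1.11, n = 3), and in both wounded sets the second was *Sfrp2*, with means of 31.4 ± 12.1 RPKM for set A and 35.4 ± 12.5 for set B (n = 4 each). *Wnt4*, *Wnt10a* and *Wnt3* were the ligands with the highest means in unwounded vehicle skin, at 17.9, 13.9 and 11.1 RPKM. Some ligand genes lie in adjacent pairs with no coding gene between them, and neighbours could differ widely in level. *Wnt10b* (chromosome 15, 98770712 to 98778150) reached 9.21 RPKM, and *Wnt1*, 11706 bases away, did not exceed 0.0402 RPKM in any library. *Wnt3* and *Wnt9b* on chromosome 11 reached 14.1 and 0.19 RPKM. *Wnt6* and *Wnt10a* on chromosome 1 reached 6.19 and 20.9 RPKM, and *Wnt3a* and *Wnt9a* on chromosome 11 3.24 and 3.37 RPKM.

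**Figure D1:**
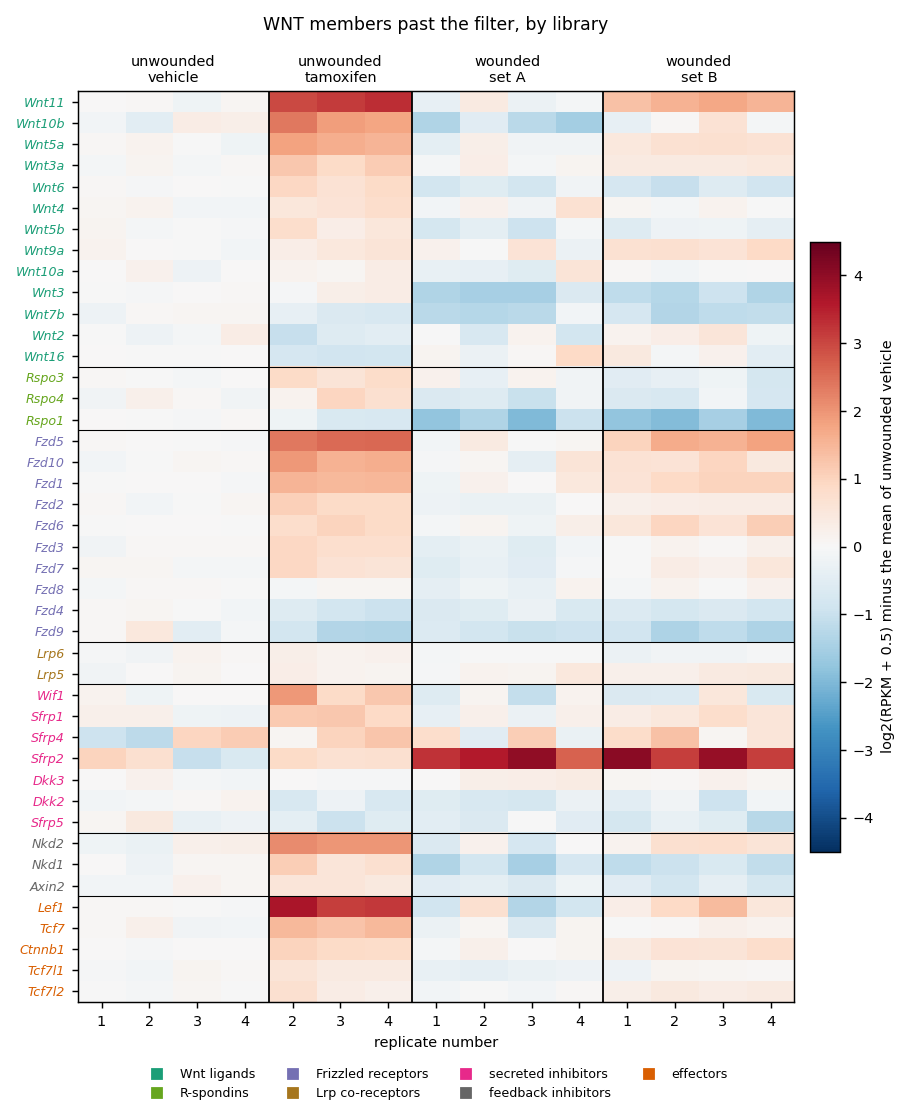
Heat map of the 43 tested members (rows, coloured by role) in the 15 libraries (columns, by replicate number), as log2(RPKM + 0.5) minus the mean of the unwounded vehicle libraries. Most rows are red in the 3 unwounded tamoxifen libraries, *Sfrp2* is red in all 8 wounded libraries, and *Rspo1* and *Wnt3* are blue in them.

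Tamoxifen and vehicle were first compared in unwounded skin, the state in which the names of the treatments agree. The ligand genes *Wnt11*, *Wnt10b* and *Wnt5a*, the receptor genes *Fzd5*, *Fzd10* and *Fzd1*, the effector genes *Lef1* and *Tcf7* and the feedback inhibitor gene *Nkd2* were each higher with tamoxifen by 2.64-fold or more. *Fzd9*, *Fzd4*, *Wnt16* and *Wnt2* were lower. Differences are from limma on log2(RPKM + 0.5), and adjusted p is by Benjamini-Hochberg over the 13922 genes, with 0.05 as the threshold. Of 43 members 28 were higher (65.1%, against 34.7% of all genes tested) and 8 lower (18.6%, against 34.7%). The median log2 difference was 0.73, against 0.000869 for all genes. By at least 1 on the log2 scale 12 members were higher (27.9%, against 7.48% of all genes) and 1 lower (2.33%, against 12.9%). The libraries of both groups did not overlap for 27 members that were higher and 8 that were lower (62.8% and 18.6%, against 35.4% and 34.2% of all genes). RPKM in whole skin does not tell apart fewer cells of a type from less RNA per cell, here and in the later comparisons. Marker lists of several cell types moved as well. With tamoxifen all 14 hair markers were higher (median log2 difference 9.05), as were 4 of 4 melanocyte (3.72) and 5 of 5 cell cycle markers (0.90). Lower were 5 of 5 macrophage (-3.03), 8 of 8 fibroblast (-1.70), 6 of 6 endothelial (-1.07) and 4 of 4 skeletal muscle markers (-1.72). The part of these lists in the results was not tested.

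**Figure D2:**
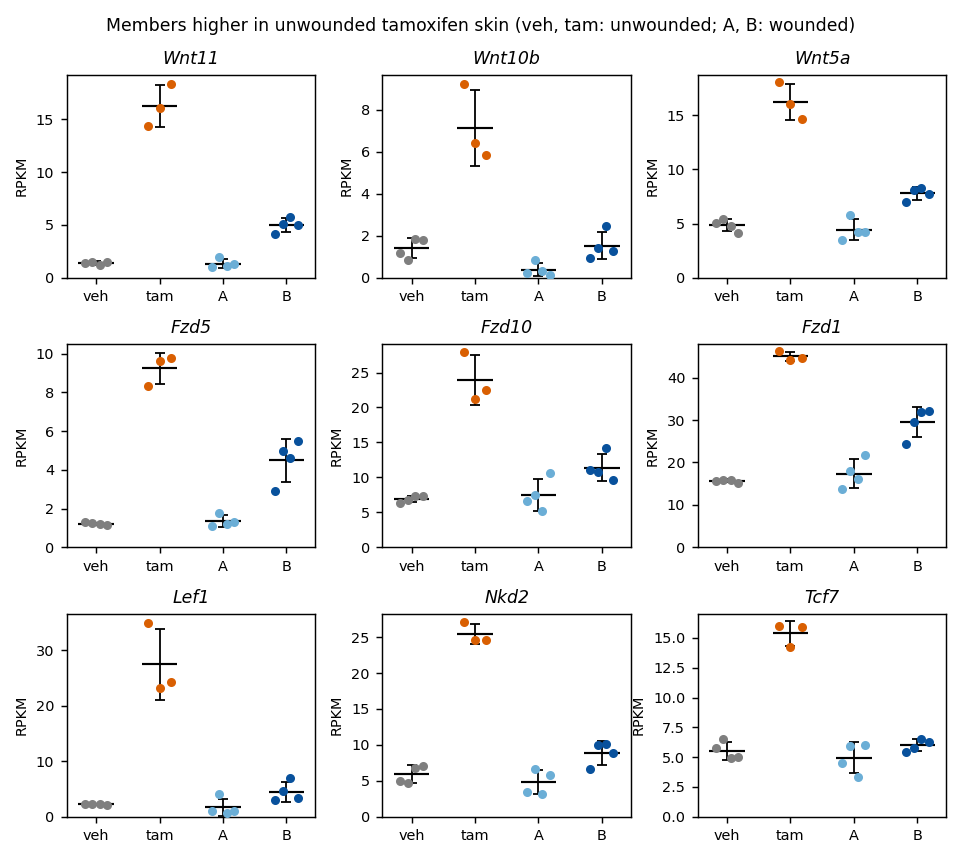
RPKM (y axes, linear from 0) of 9 members in unwounded vehicle (veh), unwounded tamoxifen (tam), wounded set A and wounded set B; points are libraries, bars the mean and SD (n = 4, or 3 for tam). In each panel the 3 unwounded tamoxifen libraries lie above all others.

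Among the ligands 8 of 13 tested were higher with tamoxifen in unwounded skin and 3 lower. *Wnt11* (chromosome 7, 98835112 to 98855195) was at 1.41, 1.47, 1.17 and 1.53 RPKM in the vehicle libraries and at 14.4, 16.1 and 18.4 RPKM in the tamoxifen libraries. The groups were far apart, with a log2 difference of 3.15 ± 0.16 (SE; limma adjusted p = 8.5e-09). *Wnt10b*, a β-catenin-activating ligand of the growing follicle, was at 1.2, 0.855, 1.84 and 1.77 RPKM with vehicle and 9.21, 6.39 and 5.84 RPKM with tamoxifen (2.01 ± 0.28, limma adjusted p = 2.94e-05). *Wnt5a* was at 5.06, 5.42, 4.75 and 4.14 against 18, 16 and 14.7 RPKM (1.65 ± 0.13). All tamoxifen libraries lay above all vehicle libraries for these 3 ligands. *Wnt3a*, a standard activator of β-catenin, was at 1.03, 1.24, 1.04 and 1.19 against 3.24, 2.43 and 3.11 RPKM (1.07 ± 0.11). *Wnt6* was at 3.2, 2.89, 3.07 and 3.04 against 6.19, 5.0 and 6.0 RPKM (0.81 ± 0.15), and both ligands were higher in every tamoxifen library than in any vehicle library. *Wnt4* (0.63 ± 0.16), *Wnt5b* (0.54 ± 0.18) and *Wnt9a* (0.46 ± 0.16) were also higher. Calls of *Wnt5b* without tamoxifen replicate 2 (adjusted p = 0.073) and of *Wnt9a* without tamoxifen replicate 3 (0.0509) or 4 (0.077) were lost.

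The ligands that were lower included *Wnt16*, at 1.43, 1.35, 1.37 and 1.44 RPKM with vehicle and 0.635, 0.557 and 0.571 RPKM with tamoxifen (-0.80 ± 0.23, limma adjusted p = 0.00714). *Wnt2*, known from fibroblasts and endothelium, was at 1.03 to 1.74 against 0.367 to 0.779 RPKM (-0.71 ± 0.25), and *Wnt7b* at 5.46 to 6.82 against 3.68 to 4.81 RPKM (-0.59 ± 0.24). The call of *Wnt2* was lost without vehicle replicate 4 (adjusted p = 0.0625) or tamoxifen replicate 2 (0.103). That of *Wnt7b* was lost without vehicle replicate 2 (0.0677), 3 (0.0728) or 4 (0.0723) or tamoxifen replicate 3 (0.0963) or 4 (0.112). *Wnt10a* (0.20 ± 0.20) and *Wnt3* (0.18 ± 0.18) did not pass. Summed over all 19 ligand genes the level was 68.2 ± 2.67 RPKM (SD, n = 4) with vehicle and 116 ± 5.07 RPKM (n = 3) with tamoxifen.

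R-spondin genes went both ways. *Rspo3* was at 1.3, 1.23, 1.14 and 1.28 RPKM with vehicle and 2.63, 2.08 and 2.59 RPKM with tamoxifen (0.75 ± 0.15, limma adjusted p = 0.000597), and *Rspo4* was higher by 0.62 ± 0.22. *Rspo1* was lower, at 9.69, 9.33, 9.03 and 9.91 against 8.33, 5.68 and 5.59 RPKM (-0.53 ± 0.21, limma adjusted p = 0.0361). Its call was lost without any one of the 4 vehicle libraries (adjusted p of 0.0646, 0.0562, 0.0511 and 0.0688 without replicates 1 to 4) or without tamoxifen replicate 3 (0.122) or 4 (0.129), with the replicate block (0.0529) and with no filter on low values (0.0564). That of *Rspo4* was lost without vehicle replicate 1 (0.0531) or 4 (0.0532) or tamoxifen replicate 3 (0.121) or 4 (0.0712). *Rspo2*, not tested, was at 0.0305, 0.0713, 0.0344 and 0.036 RPKM with vehicle and 0.914, 0.51 and 0.32 RPKM with tamoxifen.

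Of the Frizzled receptor genes 7 of 10 were higher with tamoxifen in unwounded skin and 2 lower. *Fzd5* (chromosome 1, 64730558 to 64737751) was at 1.29, 1.24, 1.19 and 1.16 RPKM with vehicle and 8.3, 9.65 and 9.76 RPKM with tamoxifen (2.50 ± 0.16, limma adjusted p = 4.4e-08). *Fzd10* was at 6.38, 6.76, 7.35 and 7.26 against 27.9, 21.3 and 22.5 RPKM (1.71 ± 0.19), and *Fzd1* at 15.6, 16, 15.9 and 15.2 against 46.3, 44.2 and 44.6 RPKM (1.49 ± 0.12). For these 3 receptors every tamoxifen library was above every vehicle library. *Fzd2* (0.93 ± 0.08), *Fzd6* (0.88 ± 0.13), *Fzd3* (0.82 ± 0.11) and *Fzd7* (0.73 ± 0.14) were higher by less than 1 on the log2 scale, and *Fzd8* did not pass (0.03 ± 0.12). *Fzd9* was at 1.5, 2.2, 0.89 and 1.32 RPKM with vehicle and 0.579, 0.262 and 0.253 RPKM with tamoxifen (-1.17 ± 0.21, limma adjusted p = 0.000212). *Fzd4*, a receptor known from blood vessels, was at 2.83 to 3.32 against 1.37 to 1.95 RPKM (-0.78 ± 0.12). All 6 endothelial markers were lower as well, their sum being 66.9 to 71.7 RPKM with vehicle and 30.8 to 36.5 RPKM with tamoxifen, and their part in the difference of *Fzd4* was not tested. Summed over the 10 receptor genes the level was 65 ± 1.0 RPKM with vehicle (SD, n = 4) and 146 ± 7.15 RPKM with tamoxifen (n = 3). Of the co-receptor genes *Lrp6* was higher by 0.20 ± 0.07 (limma adjusted p = 0.022) and *Lrp5* did not pass (0.20 ± 0.11). The call of *Lrp6* was lost without vehicle replicate 1 (0.0548) or 2 (0.0684) or tamoxifen replicate 2 (0.0749). *Lrp5* passed without set A replicate 4 (0.0459), which enters through the shared estimate of the spread.

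All 5 effector genes and all 3 feedback inhibitor genes were higher with tamoxifen in unwounded skin. *Lef1*, a factor of the hair matrix and precortex (chromosome 3, 131110471 to 131224356), was at 2.35, 2.36, 2.22 and 2.14 RPKM with vehicle and 34.9, 23.2 and 24.3 RPKM with tamoxifen. The difference of 3.31 ± 0.38 (limma adjusted p = 4.28e-06) was the largest of the 43 members in this comparison. *Tcf7* was at 5.77, 6.52, 4.9 and 4.97 against 16, 14.2 and 15.9 RPKM (1.40 ± 0.16). *Tcf7* is also a T cell gene, and the 3 T cell markers tested were all lower, their sum being 23.6 to 27.3 RPKM with vehicle and 4.35 to 7.28 RPKM with tamoxifen. The part of T cells in the values of *Tcf7* was not tested. *Ctnnb1* (0.91 ± 0.09, 127 ± 3.16 against 239.7 ± 16.7 RPKM), *Tcf7l1*, which acts mainly as a repressor in follicle stem cells (0.46 ± 0.08), and *Tcf7l2* (0.44 ± 0.10) were higher by less. *Nkd2*, whose product binds Dishevelled, was at 4.97, 4.66, 6.81 and 7.1 against 27.1, 24.6 and 24.6 RPKM (2.04 ± 0.22, limma adjusted p = 2.91e-06). *Nkd1* was at 3.72, 3.08, 3.96 and 3.94 against 8.47, 5.5 and 6.39 RPKM (0.79 ± 0.19). *Axin2*, the scaffold of the β-catenin destruction complex that β-catenin itself induces, was at 8.18, 8.19, 10.5 and 9.63 against 13.4, 13.4 and 12.4 RPKM (0.50 ± 0.12, limma adjusted p = 0.0027). Its groups did not overlap, and its difference was smaller than those of *Lef1* and *Nkd2*.

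Secreted inhibitor genes divided. *Wif1* was at 7.0, 5.45, 6.36 and 6.25 RPKM with vehicle and 25.9, 11.6 and 15 RPKM with tamoxifen (1.34 ± 0.35, limma adjusted p = 0.00364), a wide spread within tamoxifen. *Sfrp1* was at 18.4, 18.2, 13.5 and 13.2 against 36.2, 36.9 and 29.8 RPKM (1.10 ± 0.17). *Sfrp5* (-0.64 ± 0.23) and *Dkk2* (-0.55 ± 0.19) were lower. The call of *Sfrp5* was lost without vehicle replicate 1 (adjusted p = 0.0513) or 2 (0.0737) or tamoxifen replicate 3 (0.116), and that of *Dkk2* without vehicle replicate 4 (0.0508) or tamoxifen replicate 2 (0.0803) or 4 (0.0802). *Dkk3*, a divergent family member, did not pass (-0.03 ± 0.09). *Sfrp2* and *Sfrp4* split the vehicle libraries in opposite ways. *Sfrp2* was at 5.31, 4.31, 0.938 and 1.34 RPKM in vehicle replicates 1 to 4 and *Sfrp4* at 3.52, 2.89, 14.6 and 16.3 RPKM, so replicates 1 and 2 were high in the first and low in the second. Neither passed (0.76 ± 0.46 and 0.77 ± 0.59), and *Sfrp2* did without vehicle replicate 1 (1.09, adjusted p = 0.041). Tamoxifen libraries were at 4.81, 4.23 and 4.36 RPKM of *Sfrp2* and at 7.58, 14.8 and 17.6 RPKM of *Sfrp4*.

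The 9 members under the filter were *Wnt1*, *Wnt2b*, *Wnt7a*, *Wnt8a*, *Wnt8b*, *Wnt9b*, *Rspo2*, *Dkk1* and *Dkk4*, with highest values of 0.014 RPKM (*Wnt8b*) to 0.914 RPKM (*Rspo2*). *Dkk4*, an inhibitor gene known from hair placodes, was listed at 0, 0, 0.0146 and 0.0152 RPKM with vehicle and at 0.161, 0.151 and 0.141 RPKM with tamoxifen. In the wounded libraries it did not exceed 0.0298 RPKM. *Wnt7a* was at 0.365, 0.213, 0.181 and 0.113 RPKM with vehicle and 0.0222, 0.0209 and 0.0146 RPKM with tamoxifen, the latter below the value of 3 reads on a 1 kb gene. *Wnt8a* was at 0.603 RPKM in 1 tamoxifen library and at no more than 0.121 RPKM in each vehicle and wounded library.

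Of 44 other WNT pathway genes 41 were tested, and in unwounded skin 27 were higher with tamoxifen and 2 lower. Of all genes tested 34.7% were higher and 34.7% lower. *Bambi*, a BMP and activin pseudoreceptor gene that β-catenin induces, was at 0.723 ± 0.071 RPKM (SD, n = 4) with vehicle and 16.7 ± 2.09 (n = 3) with tamoxifen (3.81 ± 0.25, limma adjusted p = 4.56e-08). *Vangl2*, a planar polarity gene, was higher by 1.64 ± 0.16 and *Lgr4*, an R-spondin receptor gene, by 1.14 ± 0.12. The co-repressor gene *Tle3* was higher by 1.02 ± 0.10 and *Rnf43*, whose product removes Frizzled receptors, by 1.01 ± 0.14. *Frzb*, a further secreted inhibitor gene, was at 3.79 ± 0.141 RPKM with vehicle and 0.998 ± 0.356 RPKM with tamoxifen (-1.54 ± 0.18). The other gene that was lower, named after its value was seen, was the R-spondin receptor gene *Lgr6* (-0.77).

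In wounded skin 5 of 13 ligands, 7 of 10 Frizzled receptors and 4 of 5 effectors were higher in set B than in set A, with *Wnt11*, *Fzd5*, *Lef1* and *Wnt10b* past 1 on the log2 scale. The 19 ligand genes summed to 57.2 ± 15.4 RPKM for set A and 65.1 ± 4.31 RPKM for set B (SD, n = 4 each), with no test of that sum. Of 43 members 18 were higher in set B (41.9%, against 15.5% of all genes tested) and 1, *Rspo3*, was lower (2.33%, against 15.6%). The median log2 difference was 0.24, against 0.0023 for all genes. By at least 1 on the log2 scale 4 were higher (9.3%, against 2.65% of all genes) and 0 lower (against 2.09%). The sets did not overlap for 14 members, all higher in set B (32.6%, against 13.7% of all genes higher and 14.6% lower). Read with the gene tables' names, set B is the tamoxifen set, and with the records' names each sign is the opposite one. All 14 hair markers were higher in set B. Lower in set B were 5 of 6 endothelial, 4 of 8 fibroblast, 3 of 5 macrophage, 3 of 3 T cell and 3 of 4 Schwann cell markers. The part of these lists was not tested.

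*Wnt11* was at 0.977, 1.99, 1.07 and 1.29 RPKM across set A and at 4.16, 5.11, 5.77 and 4.98 RPKM across set B (1.61 ± 0.15, limma adjusted p = 1.38e-05). *Fzd5* was at 1.09, 1.77, 1.19 and 1.32 against 2.92, 4.96, 4.62 and 5.49 RPKM (1.42 ± 0.15, limma adjusted p = 3.97e-05). *Lef1* was at 1.03, 4.03, 0.598 and 1.06 against 2.94, 4.69, 6.97 and 3.44 RPKM (1.37 ± 0.35, limma adjusted p = 0.00969). The sets of *Lef1* overlapped through replicate 2 of set A, the library with the high hair marker sum. That library was highest in its set for 8 of the 43 tested members and lowest for 7. All 8 were among the 28 members higher with tamoxifen in unwounded skin. *Fzd2*, *Rspo3* and *Tcf7l1*, also among those 28, were lowest in it. A link to the hair marker sum was not tested. *Wnt10b* was at 0.229, 0.827, 0.298 and 0.143 against 0.95, 1.43, 2.45 and 1.27 RPKM (1.22 ± 0.26, limma adjusted p = 0.00344), without overlap. Without replicate 2 of set A the differences were 1.77 for *Wnt11*, 1.53 for *Fzd5*, 1.80 for *Lef1* and 1.44 for *Wnt10b*, and 18 members were called higher and 1 lower. With only the 8 wounded libraries in the fit *Lef1* did not pass (adjusted p = 0.051).

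Other members higher in set B included *Nkd2* (0.86 ± 0.21), *Fzd6* (0.78 ± 0.12), *Wnt5a* (0.76 ± 0.12), *Fzd1* (0.76 ± 0.11), *Fzd7* (0.62 ± 0.13), *Fzd10* (0.61 ± 0.17), *Wnt9a* (0.60 ± 0.15) and *Sfrp1* (0.58 ± 0.16). *Ctnnb1* was at 119.8, 148, 129 and 138 RPKM across set A and at 165, 197, 189.9 and 223 RPKM across set B (0.53 ± 0.09). *Fzd2*, *Fzd3*, *Tcf7l2*, *Wnt3a* and *Tcf7l1* were higher by 0.31 to 0.51. *Fzd10* was lost without set B replicate 3 (adjusted p = 0.0509) and with only the wounded libraries in the fit (0.0597). *Rspo3* was at 1.47, 0.859, 1.45 and 1.05 against 0.707, 0.836, 1.02 and 0.502 RPKM (-0.43 ± 0.14, limma adjusted p = 0.0321). Its sets overlapped, and the call was lost without set A replicate 1 (0.102) or 3 (0.094), without set B replicate 1 (0.0638) or 4 (0.107), and with only the wounded libraries (0.0959). *Axin2* (-0.17 ± 0.11), *Nkd1* (0.13 ± 0.17), *Tcf7* (0.28 ± 0.15) and *Wif1* (-0.02 ± 0.32) did not pass. Without 1 library some members passed that otherwise did not, namely *Wnt10a* (0.40, adjusted p = 0.00631), *Fzd8* (0.36, 0.00628) and *Lrp5* (0.25, 0.0322) without set A replicate 4, *Wnt2* (0.72, 0.0343) without set A replicate 3 and *Dkk3* (-0.22, 0.0429) without set A replicate 1. With library weights and every library kept, *Fzd8* (0.43, adjusted p = 0.000684), *Wnt5b* (0.42, 0.00872), *Tcf7* (0.36, 0.0167), *Lrp5* (0.26, 0.0209) and *Fzd9* (-0.54, 0.0186) passed.

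Among the other WNT pathway genes 19 of 41 were higher in set B and 1 lower, against 15.5% and 15.6% of all genes tested. *Bambi* was higher by 1.64 ± 0.23 and *Lgr5*, an R-spondin receptor gene of follicle stem cells, by 1.19 ± 0.22. *Notum*, encoding an enzyme that inactivates WNT ligands, was higher by 1.16 ± 0.24 and *Porcn*, encoding the enzyme that attaches their lipid, by 1.08 ± 0.17. *Vangl2* was higher by 1.06 ± 0.15.

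**Figure D3:**
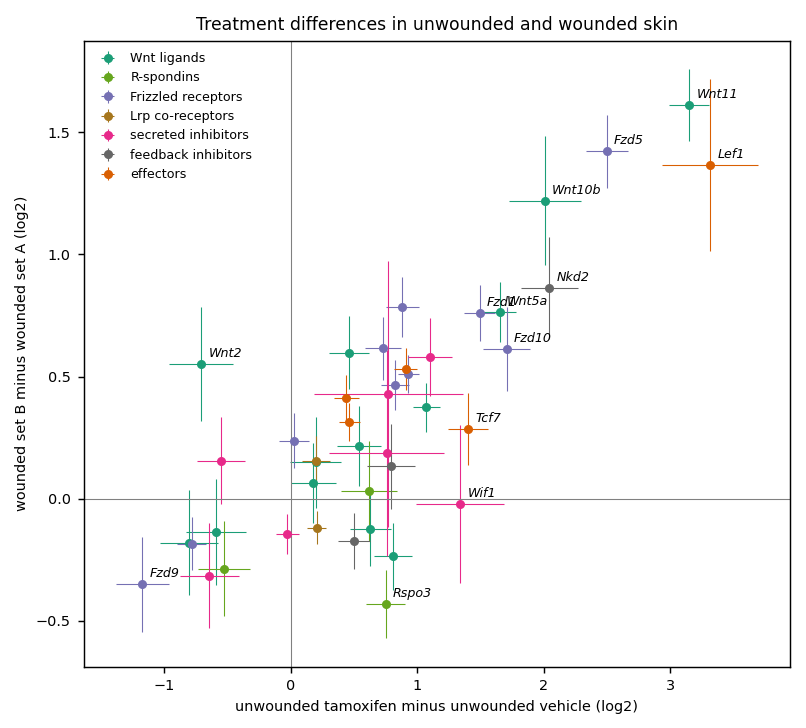
Log2 difference of each tested member between treatments in unwounded skin (x axis) and between the wounded sets (y axis), with limma standard errors as bars and colours by role. *Wnt11*, *Fzd5*, *Lef1* and *Wnt10b* lie highest on the y axis, and *Rspo3* is positive on the x axis and negative on the y axis.

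The unwounded comparison and the comparison of the wounded sets share no library. Their differences had the same sign for 35 of 43 members (81.4%) and for 76.6% of all 13922 genes. Across the 43 members Pearson's r was 0.80, as a description, since members share the libraries and the fit, and across all genes it was 0.85. In both comparisons 18 members were called higher (41.9%, against 12.4% of all genes) and 0 lower (against 13.5%).

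Wounded and unwounded skin were compared over all 15 libraries, as the mean of both wounded sets minus the mean of both unwounded groups, which does not depend on how the wounded sets are named. *Sfrp2*, encoding a ligand-binding inhibitor made by fibroblasts, was the member that rose most. *Wnt10b*, *Lef1*, *Nkd1*, *Rspo1*, *Wnt3*, *Wnt6* and *Wif1* fell by at least 1 on the log2 scale. Of 43 members 28 fell (65.1%, against 29.5% of all genes tested) and 3 rose (6.98%, against 26.9%), with a median log2 difference of -0.41 against -0.02 for all genes. Of the 28 members, 14 were also lower for set A minus unwounded vehicle. By at least 1 on the log2 scale 7 fell (16.3%, against 2.23% of all genes) and 1 rose (2.33%, against 5.01%). The 8 wounded libraries did not overlap with the 7 unwounded ones for 6 members that were lower (14%, against 3.97% of all genes) and 1 that was higher (2.33%, against 5.7%). These were *Axin2*, *Nkd1*, *Rspo1*, *Wnt3*, *Wnt5b* and *Wnt6*, and *Sfrp2*. Of the 14 hair markers 5 were lower and 0 higher. Macrophage markers were higher for 5 of 5 and endothelial markers for 5 of 6. Skeletal muscle, adipocyte, melanocyte and Schwann cell markers were lower for 4 of 4 each. The macrophage markers summed to 431 to 730 RPKM in unwounded vehicle and 60.5 to 89 RPKM in unwounded tamoxifen skin. Their sum was 516 to 785 RPKM across set A and 320 to 410 RPKM across set B. For set A minus unwounded vehicle 1 of 5 macrophage markers was higher. The part of these lists was not tested.

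*Sfrp2* (chromosome 3, 83766321 to 83774316) was at 27.1, 34, 46.6 and 17.8 RPKM across set A and at 48.4, 24.8, 43.9 and 24.6 RPKM across set B. Every wounded library was thus above the highest unwounded value, 5.31 RPKM. The log2 difference over all libraries was 3.07 ± 0.31 (limma adjusted p = 2.44e-06). It was 3.36 ± 0.42 for set A minus unwounded vehicle and 2.79 ± 0.46 for set B minus unwounded tamoxifen. *Dkk3* (0.18 ± 0.06) and *Wnt16* (0.51 ± 0.16) were the other members that rose. Of the 8 fibroblast markers 3 rose and 0 fell in the same comparison. Their sum was 4982 to 9334 RPKM in unwounded vehicle skin, 1597 to 3817 in unwounded tamoxifen skin, 4418 to 8075 across set A and 3144 to 4569.8 across set B.

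**Figure D4:**
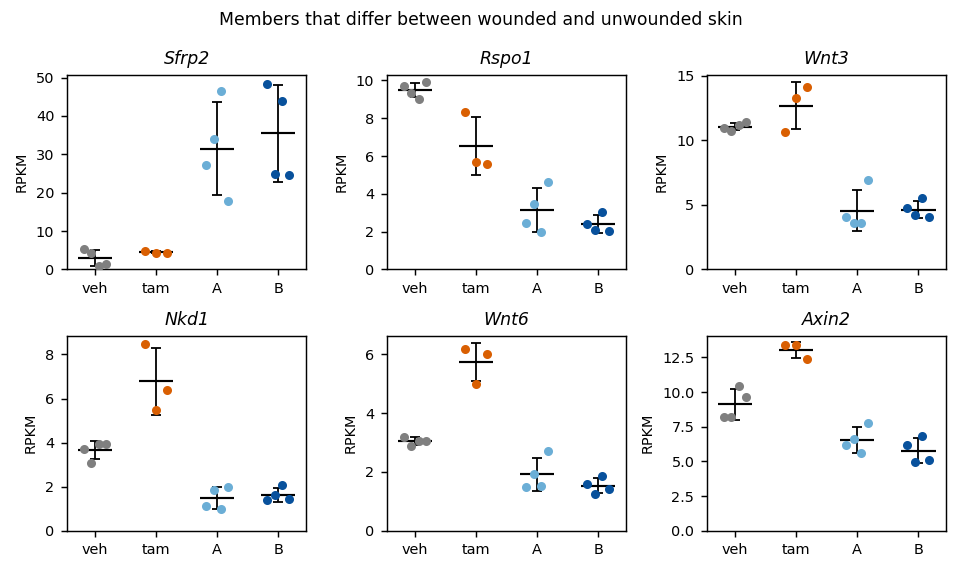
RPKM (y axes, linear from 0) of 6 members in unwounded vehicle (veh), unwounded tamoxifen (tam), wounded set A and wounded set B; points are libraries, bars the mean and SD (n = 4, or 3 for tam). For each gene the 8 wounded libraries lie on one side of the 7 unwounded ones.

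Among ligands *Wnt3*, which activates β-catenin, was at 4.07, 3.6, 3.58 and 6.9 RPKM across set A and at 4.72, 4.24, 5.51 and 4.04 RPKM across set B. In unwounded skin it was at 10.9, 10.7, 11.2 and 11.4 RPKM with vehicle and 10.6, 13.3 and 14.1 RPKM with tamoxifen, all above the wounded libraries. The difference was -1.30 ± 0.12 (limma adjusted p = 1.11e-06). *Wnt6* was at 1.5, 1.94, 1.52 and 2.7 RPKM across set A and at 1.58, 1.24, 1.85 and 1.43 RPKM across set B (-1.10 ± 0.10), under every unwounded library. *Wnt10b* fell by 1.55 ± 0.19, *Wnt11* by 0.84 ± 0.11, *Wnt7b* by 0.72 ± 0.16, *Wnt5b* by 0.72 ± 0.12, *Wnt5a* by 0.57 ± 0.09 and *Wnt3a* by 0.29 ± 0.07. *Wnt10a* (-0.20 ± 0.14) and *Wnt4* (-0.22 ± 0.11) did not pass, and both did without set A replicate 4 (-0.32, adjusted p = 0.00133, and -0.31, 0.00314). That library held 20.9 RPKM of *Wnt10a* and 29 RPKM of *Wnt4*, the highest of set A, and it was highest in its set for 26 of the 43 members. *Wnt9a* (0.20 ± 0.11) likewise passed without it (0.27, 0.0281), and *Wnt2* (0.28 ± 0.17) did not pass. For set A minus unwounded vehicle *Wnt3*, *Wnt6*, *Wnt10b*, *Wnt7b* and *Wnt5b* were lower. *Wnt11* (-0.08 ± 0.15), *Wnt5a* (-0.13 ± 0.12) and *Wnt3a* (0.06 ± 0.10) did not pass there. For set B minus unwounded vehicle *Wnt11*, *Wnt5a* and *Wnt3a* were higher, by 1.54, 0.64 and 0.43. *Wnt3* (-1.18), *Wnt7b* (-1.08) and *Wnt6* (-0.82) were lower there, and *Wnt10b* (0.06 ± 0.26) and *Wnt5b* (-0.34 ± 0.16) did not pass.

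All 3 tested R-spondin genes fell. *Rspo1* was at 2.45, 3.44, 2.0 and 4.62 RPKM across set A and at 2.41, 2.07, 3.04 and 2.04 RPKM across set B, all under the lowest unwounded value of 5.59 RPKM. Its difference was -1.39 ± 0.14 (limma adjusted p = 2.65e-06), beside -0.89 ± 0.15 for *Rspo4* and -0.63 ± 0.10 for *Rspo3*. *Rspo3* did not pass for set A minus unwounded vehicle (-0.04 ± 0.14) and was lower for set B minus unwounded vehicle (-0.47 ± 0.14). *Rspo1* and *Rspo4* were lower in both. The 4 R-spondin genes summed to 13 ± 0.352 RPKM in unwounded vehicle skin (SD, n = 4) and 13.3 ± 0.981 in unwounded tamoxifen skin (n = 3). In sets A and B the sum was 5.72 ± 1.37 and 4.57 ± 1.12 RPKM (n = 4 each).

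The feedback inhibitor genes, which β-catenin induces, all fell. *Nkd1* was at 1.12, 1.85, 0.983 and 1.96 RPKM across set A and at 1.39, 1.6, 2.1 and 1.45 RPKM across set B, under every unwounded library (-1.43 ± 0.13, limma adjusted p = 8.73e-07). *Axin2* was at 6.15, 6.63, 5.61 and 7.78 RPKM across set A and at 6.19, 4.93, 6.81 and 5.08 RPKM across set B, also under every unwounded library (-0.79 ± 0.08, limma adjusted p = 4.27e-06). *Nkd2* fell by 0.90 ± 0.15. It did not pass for set A minus unwounded vehicle (-0.31 ± 0.21) and was higher for set B minus unwounded vehicle (0.56 ± 0.21). Of the effectors *Lef1* (-1.55 ± 0.26), *Tcf7* (-0.73 ± 0.11) and *Tcf7l1* (-0.38 ± 0.06) fell, whereas *Ctnnb1* (-0.12 ± 0.06) and *Tcf7l2* (-0.07 ± 0.07) did not pass. *Ctnnb1* passed without set B replicate 4 (-0.16, adjusted p = 0.036). For set A minus unwounded vehicle *Tcf7l1* was lower (-0.31 ± 0.08), and *Lef1* (-0.57 ± 0.35) and *Tcf7* (-0.17 ± 0.15) did not pass. For set B minus unwounded vehicle *Tcf7l1* (0.00364), *Lef1* (0.79) and *Tcf7* (0.11) did not pass.

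Of the receptors 8 of 10 Frizzled genes fell, by 0.24 (*Fzd4*) to 0.53 (*Fzd3*), and *Fzd6* (-0.03 ± 0.09) and *Fzd8* (-0.08 ± 0.08) did not pass. The unwounded tamoxifen group was high for several of them. For set A minus unwounded vehicle 4 of the 10 were lower, and *Fzd1* (0.12 ± 0.11), *Fzd5* (0.09 ± 0.15) and *Fzd10* (0.06 ± 0.17) did not pass. For set B minus unwounded vehicle these 3 were higher, by 0.88, 1.51 and 0.67. The calls of *Fzd4* and *Fzd9* were lost without unwounded tamoxifen replicate 2 (adjusted p = 0.0597 and 0.0575). *Lrp6* fell by 0.20 ± 0.05. *Lrp5* (0.16 ± 0.08) did not pass, but passed without set A replicate 1 (0.0283). Of the secreted inhibitors *Wif1* was at 4.05, 6.89, 2.73 and 7.05 RPKM across set A and at 3.78, 3.93, 9.14 and 3.71 RPKM across set B, overlapping with unwounded vehicle skin. It fell by 1.01 ± 0.24 and *Sfrp1* by 0.30 ± 0.12. The call of *Sfrp1* was lost when any one of 9 libraries was left out, with an adjusted p of 0.0573 to 0.0882, and with the replicate block (0.0681). Those 9 libraries were vehicle replicates 1 and 2, tamoxifen replicates 2 and 3, set A replicates 1 and 3 and set B replicates 1, 2 and 4. *Sfrp5* (-0.25 ± 0.16), *Dkk2* (-0.23 ± 0.13) and *Sfrp4* (0.09 ± 0.40) did not pass. Among the other WNT pathway genes 26 of 41 fell and 5 rose, against 29.5% and 26.9% of all genes tested. *Tnfrsf19*, a β-catenin target gene of the follicle, fell by 1.40 ± 0.15, *Notum* by 1.28 ± 0.18, *Frzb* by 1.18 ± 0.12 and *Apcdd1*, a membrane inhibitor gene of the pathway, by 1.10 ± 0.13.

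**Figure D5:**
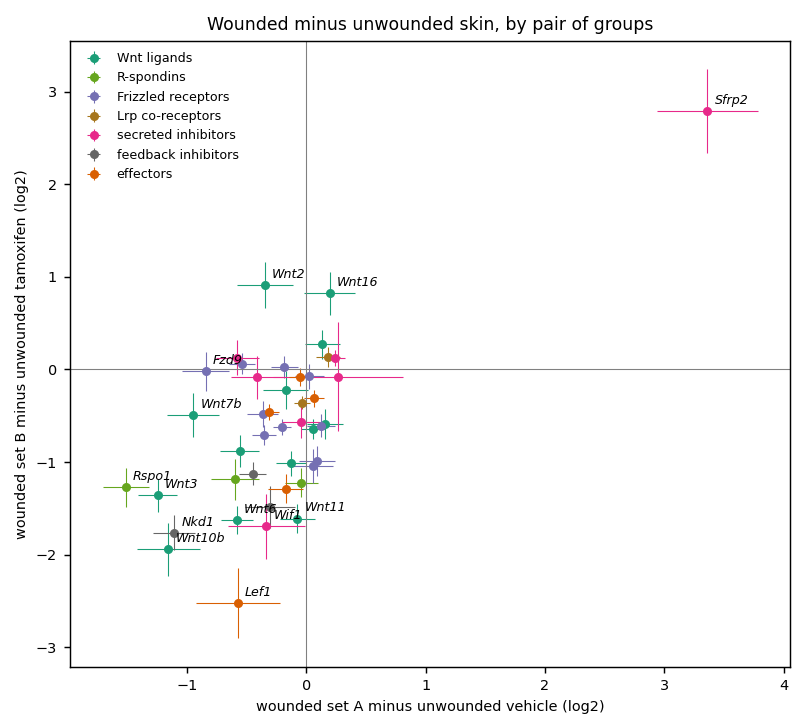
Log2 difference of each tested member for wounded set A minus unwounded vehicle (x axis) and for wounded set B minus unwounded tamoxifen (y axis), with limma standard errors as bars and colours by role. *Sfrp2* stands alone at the upper right, and *Lef1* is the lowest on the y axis.

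Paired as the gene tables name them, wounded and unwounded skin give 2 comparisons that share no library. For set A minus unwounded vehicle 15 of 43 members were lower and 2 higher (34.9% and 4.65%, against 19.4% and 20.4% of all genes tested). For set B minus unwounded tamoxifen 27 were lower and 3 higher (62.8% and 6.98%, against 28.9% and 25.9%). Lower in both were 11 members, *Axin2*, *Nkd1*, *Rspo1*, *Rspo4*, *Wnt3*, *Wnt5b*, *Wnt6*, *Wnt10b*, *Fzd3*, *Fzd7* and *Tcf7l1*, and *Sfrp2* alone was higher in both. These are 25.6% and 2.33% of the members, against 8.99% and 10.1% of all genes. In the first comparison the call of *Fzd7* (limma adjusted p = 0.0392) was lost without any one of the 4 vehicle libraries (0.0903, 0.0899, 0.0551 and 0.054 without replicates 1 to 4) or without set A replicate 1 (0.109), 2 (0.0631) or 3 (0.102). In the second it was lost without tamoxifen replicate 2 (0.0589), as was that of *Ctnnb1* (0.0572). The call of *Rspo4* in the first comparison was lost without vehicle replicate 2 (0.0873) or 3 (0.0677), or set A replicate 1 (0.0634), 2 (0.0555) or 3 (0.0984). *Dkk3* was higher there (0.24 ± 0.08). Its call was lost without vehicle replicate 1 (0.0543), 3 (0.0815) or 4 (0.0884), or set A replicate 2 (0.057), 3 (0.0722) or 4 (0.0742). That of *Dkk2*, lower there, was lost without vehicle replicate 4 (0.0557) or set A replicate 2 (0.0507) or 3 (0.0556). *Lef1* was at -0.57 ± 0.35 (not passing) and -2.52 ± 0.38 in the first and second comparison, and it passed in the first without set A replicate 2 (-1.004, adjusted p = 0.00468). *Wnt11* was at -0.08 ± 0.15 (not passing) and -1.61 ± 0.16, and *Wnt3* at -1.24 ± 0.16 and -1.36 ± 0.18. Paired by the sample records, set B minus unwounded vehicle gave 15 higher and 11 lower, and set A minus unwounded tamoxifen 3 higher and 29 lower.

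For the interaction set B was read as the tamoxifen set, as in the gene tables. Whether the treatment difference itself changed with wounding was tested as the interaction, (set B minus set A) minus (unwounded tamoxifen minus unwounded vehicle). It passed for 21 of 43 members (48.8%, against 40% of all genes tested), being negative for 17 (39.5%, against 20.2%) and positive for 4 (9.3%, against 19.7%). It was most negative for *Lef1* (-1.95 ± 0.52, limma adjusted p = 0.00936) and *Wnt11* (-1.54 ± 0.22, limma adjusted p = 0.000186), which were higher with tamoxifen in unwounded skin and less so in set B over set A. *Wnt3* (-0.12 ± 0.24), *Wnt10a* (-0.05 ± 0.28) and *Fzd6* (-0.10 ± 0.18) did not pass. Under the records' names *Fzd6* passed (-1.66 ± 0.18, limma adjusted p = 2.51e-06), and *Wnt3* (-0.24 ± 0.24) and *Wnt10a* (-0.35 ± 0.28) did not. *Fzd6* was at 12.3 ± 0.221 and 23.1 ± 1.63 RPKM in unwounded vehicle and tamoxifen skin and at 12.6 ± 1.83 and 22.2 ± 4.39 RPKM in sets A and B (SD, n = 4, 3, 4 and 4).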

How the data were processed

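RNA of whole skin was sequenced in 15 libraries. Per the submitters' processing notes the tools were TopHat2 2.1.0, bcl2fastq and Partek and the build mm10. The authors deposited RPKM per gene. The annotation, the counting rule and strand use are unstated. Library depth is the count of alignments in the deposited sample sheet. Groups were taken from the sample records. RPKM are normalized values, so limma 3.58.1 (R 4.3.3) was used on log2(RPKM + 0.5) of the genes that reached 1 RPKM in 3 or more libraries. All 4 groups entered 1 model with a mean-dependent prior (11 residual and 2.57 prior degrees of freedom). Tests were two-sided, with Benjamini-Hochberg adjustment over all genes of a comparison. This scale understates the change of low genes. Errors beside log2 differences are SEs, and those beside RPKM are SDs. The fit was tested on simulated data. Floors of 3 reads cover counting error only.

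Values in each library compared are given for members that passed by at least 1 on the log2 scale in the unwounded, wounded-set or all-library wound comparison, with others for context. Members and lists were chosen with earlier results of these data known. Same-numbered libraries of sets A and B deviated together across genes (r of 0.123 to 0.43 in 4 of 4 pairs). No other pair of groups passed 0.1 in every pair, but single pairs did, up to 0.425 for replicate 3 of unwounded vehicle and set A. Correlations between libraries with unlike numbers were not computed, so whether the replicate numbers pair any libraries was not tested. The deposited ANOVA table and target sheet were not used here.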

Additional observations from a re-analysis of the deposited data

Results flagged for a closer look

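The interaction of treatment and wounding, (set B minus set A) minus (unwounded tamoxifen minus unwounded vehicle) on the log2 scale, passed limma's test at an adjusted p of 0.05 for 21 members, with set B read as the tamoxifen set, as in the gene tables. Under the names of the sample records, set A minus set B takes the place of the first term, and the calls of *Axin2* (adjusted p = 0.102), *Dkk2* (0.194), *Lrp6* (0.451), *Rspo3* (0.185), *Wnt2* (0.699) and *Wnt4* (0.0572) were lost. Under those names *Fzd3*, *Fzd6*, *Fzd7*, *Lrp5*, *Nkd1*, *Rspo1*, *Sfrp1*, *Sfrp5*, *Tcf7l1*, *Tcf7l2*, *Wnt10b*, *Wnt16*, *Wnt5b* and *Wnt9a* passed in addition. The values that follow use the gene tables' names. For ligands it was -1.54 for *Wnt11*, -1.04 for *Wnt6*, -0.89 for *Wnt5a*, -0.75 for *Wnt4*, -0.70 for *Wnt3a* and 1.26 for *Wnt2*, and for the R-spondin gene *Rspo3* -1.18. Receptor and co-receptor genes were at -1.10 (*Fzd10*), -1.08 (*Fzd5*), -0.73 (*Fzd1*), -0.42 (*Fzd2*), -0.32 (*Lrp6*), 0.60 (*Fzd4*) and 0.82 (*Fzd9*). Among inhibitors *Wif1* was at -1.36, *Nkd2* at -1.18, *Axin2* at -0.67 and *Dkk2* at 0.70. Effectors were at -1.95 (*Lef1*), -1.12 (*Tcf7*) and -0.38 (*Ctnnb1*). The calls of *Dkk2* (adjusted p = 0.0461), *Wif1* (0.0348), *Fzd9* (0.0341) and *Ctnnb1* (0.0313) were each lost in several fits that leave out 1 library, with the highest adjusted p being 0.11 without unwounded tamoxifen replicate 4 for *Dkk2*, 0.0917 without replicate 2 of that group for *Wif1*, 0.0865 without its replicate 4 for *Fzd9* and 0.0735 without its replicate 2 for *Ctnnb1*. The replicate block also ended the calls of *Dkk2* (0.0606) and *Wif1* (0.0691).

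One library stood far from the 3 others of its group in 5 of 129 pairs of a member and a group of 4 libraries, where chance gives about 1 in 20. *Wif1* was at 9.14 RPKM in set B replicate 3 and at 3.71 to 3.93 RPKM in the others. *Rspo4* was at 2.0 RPKM in the same library and at 1.10 to 1.22 RPKM in the others. *Wnt7b* was at 5.92 RPKM in set A replicate 4 beside 2.35 to 2.52 RPKM, and at 5.46 RPKM in unwounded vehicle replicate 1 beside 6.67 to 6.82 RPKM. *Fzd3* was at 0.795 RPKM in that vehicle library beside 0.986 to 1.01 RPKM.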

How the results depend on the processing

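Alternatives were pseudocounts of 0.1 and 1, no filter, median-of-ratios scaling, library weights, a replicate block, only the compared libraries in the fit, leaving out each library, and the sample records' names. No count of called members or genes moved by over 1.5 times, except that library weights gave 7041 called genes between the wounded sets, and that under the records' names the vehicle wound comparison called 26 members and the interaction 9538 genes (29 members). Leaving out each library gave 30 to 37 called members in unwounded skin, 18 to 22 between the wounded sets, 28 to 34 for all wounded against all unwounded libraries, 13 to 19 and 28 to 31 for the vehicle and tamoxifen wound comparisons, and 17 to 22 for the interaction. The replicate block gave 19 called members between the wounded sets, 18 higher and 1 lower, as without it. In unwounded skin the block took the calls of *Rspo1* (adjusted p = 0.0529) and *Wnt7b* (0.0502). It also ended the interaction of *Dkk2* (0.0606) and *Wif1* (0.0691) and the wound call of *Sfrp1* (0.0681). No filter ended the calls of *Rspo1* (0.0564) and *Wnt7b* (0.0585) in unwounded skin, *Sfrp1* with wounding (0.0576), *Fzd7* (0.0571) and *Rspo4* (0.0504) in the vehicle wound comparison, and *Dkk2* (0.0743) and *Wif1* (0.0594) in the interaction. Under the records' names the vehicle wound comparison turned around, among members called under either naming, for *Wnt11* (1.54), *Wnt5a* (0.64), *Nkd2* (0.56), *Sfrp1* (0.54), *Tcf7l2* (0.36), *Fzd2* (0.31), *Fzd7* (0.25), *Fzd3* (0.11), *Wnt10b* (0.0633) and *Tcf7l1* (0.00364), and the interaction for *Wnt9a* (-1.06). *Lef1* (0.79), *Wnt2* (0.20), *Tcf7* (0.11) and *Fzd8* (0.0549), called under neither, also changed sign there. These are differences between other groups of libraries. Depth limits the lowest members most, such as *Wnt1* and *Wnt8b*, whose highest values (0.0402 and 0.014 RPKM) were near or under that of 3 reads on a 1 kb gene.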
